A study of Homo sapiens with 6 samples.

Results

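In all, 10 genes of the Notch pathway were followed in MDA-MB-231 cells: the receptors NOTCH1, NOTCH2 and NOTCH3, the ligands JAG1 and JAG2, the ubiquitin ligases MIB1 and NEURL1B, the glycosyltransferase LFNG, and the transcription factors HES1 and HEY1. They are 10 of the 58735 gene rows of the deposited table, taken by gene name. They were chosen by role in the pathway and with their change between PM2.5 and Control already known, so that change is described here and is not tested again. MDA-MB-231 is an established line from a human triple-negative breast cancer, a tumour type that lacks the oestrogen and progesterone receptors and HER2 amplification. The groups were 3 libraries labelled Control and 3 labelled PM2.5 (fine airborne particulate matter), with RNA taken after 48 h, in a study of what such particles do to malignant progression. The sources used here give neither the particle dose nor what the Control cultures received. Both groups are the same single line, and no genetic change is labelled. The submitters call the libraries biological replicates without saying how separate the cultures were, so p-values measure the spread between these libraries, which may in part be technical.

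Notch receptors are single-pass membrane proteins that read ligands on neighbouring cells. A ligand such as Jagged must be ubiquitinated by an E3 ligase of the Mind bomb or Neuralized family and pulled into its own cell before it can open the receptor. ADAM proteases and then gamma-secretase cut the opened receptor, and the freed intracellular part enters the nucleus, joins the DNA-binding protein RBPJ and switches on genes of the HES and HEY families. Fringe glycosyltransferases such as LFNG add sugar to the receptor and shift its preference between Delta and Jagged ligands. In triple-negative breast cancer the pathway is known for its part in stem-like growth and invasion.

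Total counts ran from 31846136 to 34691009 per library. Levels of the cell type markers are CPM over these totals, without the TMM scaling applied to HMOX1, CYP1A1 and the genes below. Of the markers checked, VIM and CD44 stood above 1500 CPM in every library, ESR1 was at 0 in every library, and CDH1, PGR and EPCAM stayed under 0.2 CPM, although the luminal keratin KRT19 ran from 876 to 1264 CPM. Of 5 leukocyte markers 3 were at 0 in every library and the summed level ran from 1.26 to 3.83 CPM; of 5 fibroblast markers 2 were at 0 in every library and the sum ran from 25.9 to 31.5 CPM, most of it COL1A1; of 5 endothelial markers none was at 0 in all 6 libraries and the sum ran from 38.5 to 58.2 CPM, nearly all PECAM1. HMOX1, a gene known to be induced by particulate matter, was at 813 ± 58.3 CPM (SD, n = 3) under the Control label and 51.3 ± 6.0 CPM (SD, n = 3) under the PM2.5 label, and CYP1A1, another such gene, at 6.29 ± 1.73 and 2.73 ± 0.65 CPM. Both ran against the label, and whether the group labels are exchanged was not tested. Every rise and fall below is therefore that of the libraries as labelled. Control replicate 3 stood apart from Control replicates 1 and 2 on the second principal component (score -42.6 against 19.6 and 15.0). Where leaving it out changed a call of a gene named below, both values are given.

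Of the 10 genes 7 were higher in the libraries labelled PM2.5 by edgeR's quasi-likelihood test over all genes (a call means a Benjamini-Hochberg adjusted p under 0.05), and 0 were lower. NEURL1B showed the largest change of the 10, followed by HEY1; JAG2, LFNG, JAG1, MIB1 and NOTCH1 rose by less, and NOTCH2, NOTCH3 and HES1 were not called. Across the 14975 genes tested 31.9% were called, 16.1% higher and 15.8% lower. No Control library reached the range of the PM2.5 libraries for 9 of the 10 genes, against 44.3% of all genes tested. All 10 passed the filter on low counts, but since the genes were picked with these changes known, nothing is read from these counts. In RNA from whole cultures, a change in the share of cells that express a gene and a change in RNA per cell cannot be told apart.

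**Figure D1:**
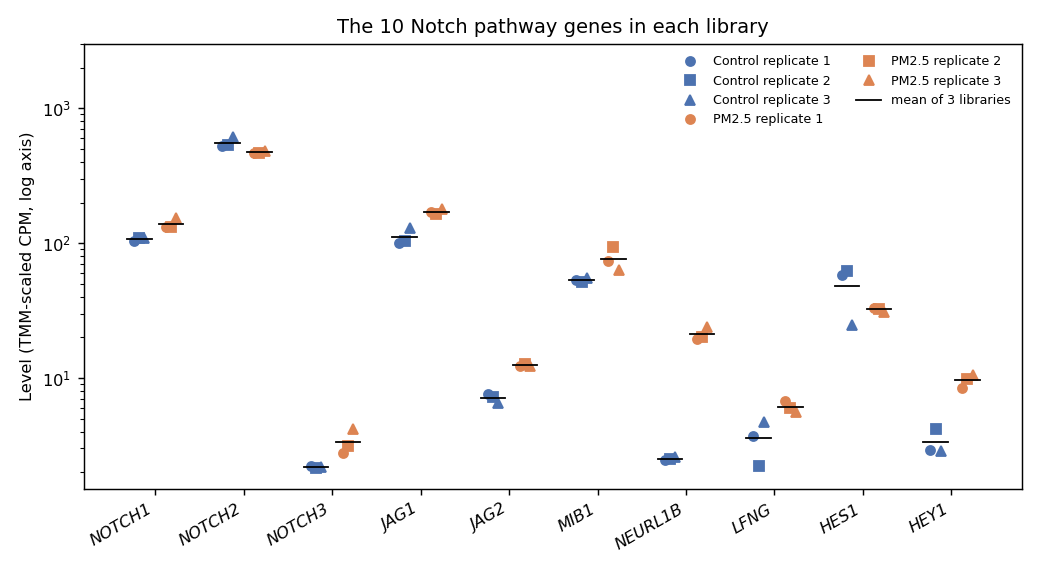
Level of each of the 10 genes in each of the 6 libraries (CPM scaled by TMM, log axis), with Control in blue, PM2.5 in orange, 1 symbol per replicate number and a bar at the mean of 3 libraries. NEURL1B moves from 2.45-2.60 CPM to 19.4-23.9 CPM, while HES1 in Control replicate 3 lies below all 3 PM2.5 libraries.

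The main receptors of these cells were NOTCH2 and NOTCH1. NOTCH1 (ENSG00000148400; GRCh38 chromosome 9, 136494433 to 136545786, minus strand), best known as an oncogene of T cell leukaemia, stood at 104, 110 and 110 CPM in Control and 132, 131 and 154 CPM in PM2.5, listed by replicate number here and below. Every PM2.5 library was above every Control library, and NOTCH1 rose 1.29-fold (log2 change 0.37 ± 0.10, SE, n = 3 each). NOTCH2 (ENSG00000134250; chromosome 1, 119911553 to 120069626, minus strand) stood at 528, 533 and 610 CPM in Control and 466, 463 and 485 CPM in PM2.5. The groups of NOTCH2 did not overlap either, in the opposite direction, but its log2 change of -0.24 ± 0.10 was not called; it was called with DESeq2 and once GC and length trends were taken out (log2 change -0.35). The 5' part of NOTCH2 is copied in the NOTCH2NL genes, of which NOTCH2NLA was counted at 0.457 to 2.43 CPM. How reads that match both were counted is not given. Part or all of the NOTCH2NLA level may therefore belong to NOTCH2, and a small part of the NOTCH2 level to NOTCH2NLA.

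NOTCH3 (ENSG00000074181; chromosome 19, 15159038 to 15200981, minus strand), a receptor known from vascular smooth muscle, was low throughout, at 2.22, 2.16 and 2.20 CPM in Control and 2.77, 3.11 and 4.17 CPM in PM2.5. Its groups did not overlap, but the PM2.5 libraries spread widely and the log2 change of 0.61 ± 0.24 was not called. NOTCH4, the receptor first known from endothelium, had only 9 to 45 counts per library and was not called (log2 change 1.0 ± 0.45, adjusted p = 0.101 in the same edgeR fit).

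Levels per gene length (RPKM) show how the receptor pool was made up. The 4 receptors summed to 43.8 ± 2.92 RPKM in Control and 41.9 ± 2.06 RPKM in PM2.5 (SD, n = 3 each), sums whose ranges overlapped. Within that pool NOTCH1 made up 24.0%, 24.9% and 22.4% in the Control libraries and 31.2%, 31.1% and 33.6% in the PM2.5 libraries. NOTCH2 made up 75.6% ± 1.25 and 67.0% ± 1.61. NOTCH3 and NOTCH4 together stayed under 2% of the pool in each library.

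Both Jagged ligands rose. JAG1 (ENSG00000101384; chromosome 20, 10637684 to 10673999, minus strand), the ligand whose loss causes Alagille syndrome, stood at 100, 104 and 129 CPM in Control and at 171, 165 and 179 CPM in PM2.5. Control replicate 3 was the highest of its group, yet below all PM2.5 libraries, and JAG1 rose 1.55-fold (log2 change 0.63 ± 0.10, SE). JAG2 (ENSG00000184916; chromosome 14, 105140981 to 105168824, minus strand), the second Jagged ligand, stood at 7.61, 7.25 and 6.55 CPM in Control and 12.2, 12.7 and 12.3 CPM in PM2.5. The PM2.5 libraries of JAG2 lay close together and apart from Control, a 1.74-fold rise (log2 change 0.80 ± 0.14, SE); exons of another gene cover 7.33% of its exonic bases.

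Delta-type ligands were close to absent. DLL1 had 9 to 22 counts and DLL4 6 to 20 counts per library, and neither was called (log2 changes -0.31 ± 0.49 and 0.05 ± 0.55, SE). DLL3 was at 0 counts in 4 libraries, where a count of 0 allows at most 0.0942 CPM, and was not tested. JAG1 therefore made up 89.5% ± 1.46 of the RPKM of the 5 canonical ligands in Control and 89.6% ± 0.604 in PM2.5, while their sum went from 13.3 ± 1.66 to 20.6 ± 0.717 RPKM. Among the non-canonical ligands, DLK2, a Delta-like protein without the domain that opens receptors, rose from 2.34 ± 0.291 to 4.80 ± 0.295 CPM (adjusted p = 0.00116 by edgeR over all genes tested). DNER, a more abundant non-canonical ligand known from neurons, stood at 12.5 ± 0.66 and 9.65 ± 0.966 CPM, groups that did not overlap, and was not called (log2 change -0.38 ± 0.14, adjusted p = 0.0505, edgeR). It was called with DESeq2 and without PM2.5 replicate 3 (adjusted p = 0.0479 and 0.037), and was named after its values were seen.

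NEURL1B (ENSG00000214357; chromosome 5, 172641266 to 172691540, plus strand), a Neuralized-family E3 ligase that acts on Notch ligands, had the largest log2 change of the 10 genes. It had 75, 81 and 89 reads in the Control libraries (2.45, 2.5 and 2.60 CPM) against 675, 673 and 818 reads in the PM2.5 libraries (19.4, 20.3 and 23.9 CPM). The Control libraries agreed closely, and the lowest PM2.5 library was far above the highest Control library. NEURL1B rose 8.40-fold (log2 change 3.07 ± 0.16, SE, n = 3 each), rank 17 of 14975 tested genes and rank 12 of 12653 protein-coding genes by log2 change. Exons of another gene cover 5.96% of its exonic bases.

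The other 3 ligases had log2 changes between -0.45 and 0.53. MIB1 (ENSG00000101752; chromosome 18, 21704957 to 21870957, plus strand), the broadly used Mind bomb ligase, stood at 53.4, 51.7 and 54.7 CPM in Control and 73.8, 92.9 and 63.4 CPM in PM2.5. The Control libraries of MIB1 lay close together while the PM2.5 libraries were spread, with replicate 2 highest, and MIB1 rose 1.44-fold (log2 change 0.53 ± 0.12, SE). Its longest transcript holds 37.7% GC, and across 14973 tested genes the rank correlation of GC content with a library's deviation from the gene mean was -0.37 in PM2.5 replicate 2 and 0.20 in PM2.5 replicate 3, a description across genes that are not independent. With GC and length trends removed the log2 change of MIB1 was 0.29, still called. MIB2, the second Mind bomb ligase, fell from 43.4 ± 0.412 to 31.8 ± 1.59 CPM (log2 change -0.45 ± 0.10, adjusted p = 0.0026, edgeR), and NEURL1, the closest relative of NEURL1B, had 13 to 38 counts per library and was not called.

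Scaled by length, the 4 ligases summed to 10.8 ± 0.212 RPKM in Control and 14.7 ± 1.31 RPKM in PM2.5. NEURL1B held 3.50%, 3.68% and 3.70% of that sum in the Control libraries and 21.8%, 19.5% and 26.5% in the PM2.5 libraries. MIB2 held 45.8% ± 0.539 and 24.8% ± 2.33, and MIB1 49.1% ± 0.547 and 51.7% ± 6.09. MIB1 thus kept the largest share in all 6 libraries, with NEURL1B close to MIB2 in the PM2.5 libraries.

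**Figure D2:**
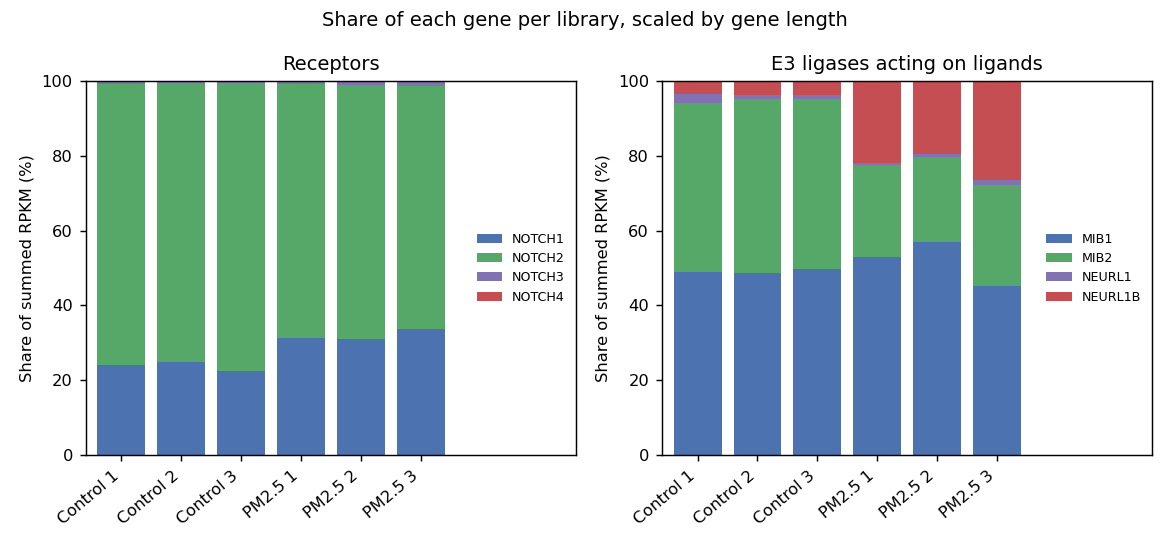
Share of each receptor (left) and each ligand-directed E3 ligase (right) in the summed RPKM of its family, 1 bar per library, in percent. NEURL1B takes 3.50% to 3.70% of the ligase sum in Control and 19.5% to 26.5% in PM2.5, and NOTCH1 22.4% to 24.9% and 31.1% to 33.6% of the receptor sum.

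The protein-coding genes whose pattern over the 6 libraries was most like that of NEURL1B were AGR2, CST1, MPZL2, HJURP and KIF20A, by the root mean square difference of log2 CPM centred on each gene's mean (0.11, 0.14, 0.14, 0.15 and 0.17, among 11617 genes with a mean of at least 1 CPM). AGR2, a disulfide isomerase family member of the endoplasmic reticulum, went from 1.29 ± 0.123 to 11.8 ± 1.09 CPM. CST1, a secreted cystatin, went from 17.1 ± 1.59 to 144 ± 18 CPM. HJURP, a centromere chaperone, and KIF20A, a mitotic kinesin, follow cell division in most cells. MPZL2, an adhesion protein, went from 6.44 ± 0.348 to 46.4 ± 1.5 CPM. All of these patterns are dominated by the difference between the groups.

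The neighbours of NEURL1B on chromosome 5 were looked up as well. Within 500000 bases on either side lay 31 other genes, of which 12 were tested, 2 rose and 3 fell. Over all genes tested 16.1% were called higher and 15.8% lower, and nothing is read from so few neighbours. The nearest tested protein-coding gene was the phosphatase gene DUSP1, at 342, 376 and 193 CPM in Control and 277, 262 and 296 CPM in PM2.5. Its groups overlapped only through Control replicate 3: DUSP1 was not called with all libraries (log2 change -0.13 ± 0.17, adjusted p = 0.608, edgeR) and was called lower without that library (-0.37 ± 0.08, adjusted p = 0.00338). ERGIC1, of the early secretory pathway, rose by 0.29 ± 0.09 on the log2 scale, and SH3PXD2B, an invadopodium scaffold, and the proton pump subunit ATP6V0E1 fell by 0.55 ± 0.12 and 0.53 ± 0.10. BNIP1, a SNARE protein, also rose (0.37 ± 0.13), and RPL26L1, a ribosomal protein paralog, also fell (-0.52 ± 0.11). Neither rise held throughout: the call for ERGIC1 was lost without Control replicate 1 or 2 or PM2.5 replicate 1 or 3 (adjusted p = 0.0611 to 0.113, edgeR). The call for BNIP1 was lost with the replicate number as a term (adjusted p = 0.0568, edgeR) and without Control replicate 1 or 3 or PM2.5 replicate 1 or 3 (adjusted p = 0.0579 to 0.138), with a log2 change of 0.24 without Control replicate 3. This window and these genes were chosen by position after the values of NEURL1B were seen.

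LFNG (ENSG00000106003; chromosome 7, 2512529 to 2529177, plus strand), the Lunatic fringe that elongates O-fucose on the receptor, stood at 3.72, 2.22 and 4.74 CPM in Control and 6.80, 6.0 and 5.60 CPM in PM2.5. The groups did not overlap, but the Control libraries differed among themselves by more than the gap between the groups. LFNG rose 1.72-fold (log2 change 0.78 ± 0.24, SE); the call was lost without Control replicate 2 (0.53) and without PM2.5 replicate 1 (0.71), and the change was 1.04 without Control replicate 3. Radical fringe, RFNG, was the most abundant fringe and fell from 35.3 ± 7.33 to 26.2 ± 2.01 CPM (adjusted p = 0.0266, edgeR), a call lost with the replicate number as a term (adjusted p = 0.0674) and without Control replicate 1, Control replicate 2, PM2.5 replicate 1 or PM2.5 replicate 2 (adjusted p = 0.0736 to 0.14). Exons of other genes cover 21.6% of the exonic bases of RFNG. Manic fringe, MFNG, had 6 to 27 counts per library and was not called.

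The HES and HEY genes are the usual readout of the pathway, and of the pair followed here HEY1 rose and HES1 was not called. HEY1 (ENSG00000164683), a repressor of the basic helix-loop-helix class known from blood vessels and heart, stood at 2.91, 4.17 and 2.90 CPM in Control and 8.44, 9.86 and 10.5 CPM in PM2.5. All 3 PM2.5 libraries lay well above the highest Control library, and HEY1 rose 2.89-fold (log2 change 1.53 ± 0.19, SE). HES1 (ENSG00000114315; chromosome 3, 194136145 to 194138732, plus strand), a repressor that also represses its own gene, stood at 58.5, 62.0 and 24.6 CPM in Control and 33.3, 32.5 and 31.0 CPM in PM2.5. Control replicates 1 and 2 were above the PM2.5 libraries and Control replicate 3 was below them, so the groups overlapped.

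The log2 change of HES1 was -0.58 ± 0.22 (SE) with all libraries and was not called. Without Control replicate 3 it was -0.90 ± 0.09 and was called; over the other libraries left out in turn it ran from -0.60 to -0.37. Other genes were low in the same library: the endoplasmic reticulum chaperone HSPA5 stood at 2919 CPM there, against 5641 and 6792 CPM in Control replicates 1 and 2. Unlike HES1, HSPA5 was higher in PM2.5, at 12310.6, 13066.5 and 12574.3 CPM (log2 change 1.31 ± 0.21, SE). Among the genes closest to HES1 in pattern were INSIG1 and MSMO1 (root mean square difference 0.11 and 0.18). INSIG1, a sterol-sensing protein, stood at 276, 347 and 145 CPM in Control and 163 to 179 CPM in PM2.5. MSMO1, an enzyme of cholesterol synthesis, stood at 91.1, 104 and 49.3 CPM in Control and 57.0 to 73.6 CPM in PM2.5; it was not called with all libraries (-0.30 ± 0.19) and was without Control replicate 3 (-0.57). What sets Control replicate 3 apart, and its part in the HES1 values, was not tested.

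**Figure D3:**
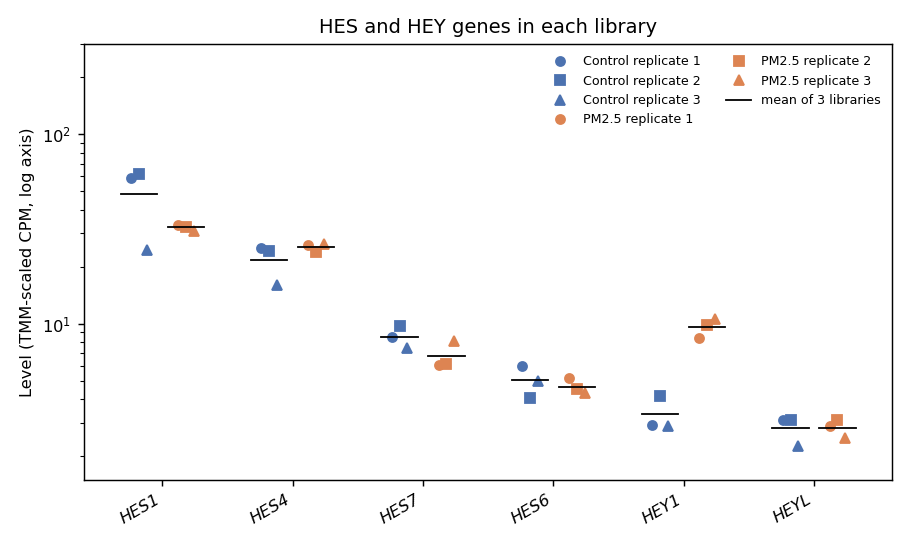
Level of 6 HES and HEY genes in each library (CPM scaled by TMM, log axis), with symbols as in the plot of the 10 genes and a bar at the mean of 3 libraries. HEY1 is higher in all PM2.5 libraries (8.44 to 10.5 CPM against 2.90 to 4.17 CPM). Every gene shown except HES6 is lowest among the Control libraries in replicate 3, HEY1 only narrowly.

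No other tested HES or HEY gene was called. HES4, a close relative of HES1, stood at 25.2, 24.1 and 15.9 CPM in Control and 26.0, 23.9 and 26.4 CPM in PM2.5 and was not called (log2 change 0.23 ± 0.15); it was called with GC and length trends removed (0.39), and was 0.05 without Control replicate 3. HEYL, another member of the HEY subfamily, stood at 2.81 ± 0.486 and 2.82 ± 0.318 CPM, and NRARP, a feedback inhibitor and direct Notch target, at 1.54 ± 0.208 and 1.61 ± 0.149 CPM. Neither was called (log2 changes 0.01 ± 0.23 and 0.07 ± 0.29, SE). HES5 was at 0 counts in all 6 libraries and HEY2, at 2 to 10 counts, was below the filter. Of the 9 listed HES and HEY genes 7 were tested, 1 rose and 0 fell, or 14.3% called against 31.9% of all genes tested.

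Because RBPJ reads DNA at a known core sequence, the bases before the start of these genes show which of them carry it nearby. Windows of 250 bases before the start were taken from RefSeq (GRCh38.p14) and searched on both strands for TGGGAA, the core of the RBPJ site, and for CACNAG, the N box bound by HES factors. TGGGAA was found in 20.8% of 35116 promoter windows, and at 2 or more places in 2.90%; CACNAG was found in 11251 windows, and at 2 or more places in 6.32%; the search counts letters only and allows matches to overlap. The windows of 3 HES and HEY genes are shown with NEURL1B, the gene of the largest change. Starts are those of RefSeq and can differ from the starts of the counted genes. The HEYL window lies inside the counted gene (39624153 to 39639945), and the HES4 window overlaps its own (998962 to 1000172). The HES1 window overlaps its counted gene only at its last bases. Capitals mark TGGGAA or its reverse complement TTCCCA. HES1 lies at chr3:194135898-194136147 on the plus strand, HES4 at chr1:1000098-1000347 on the minus strand, HEYL at chr1:39639644-39639893 on the minus strand and NEURL1B at chr5:172641013-172641262 on the plus strand, each printed 5′ to 3′ in the direction of the gene.
HES1: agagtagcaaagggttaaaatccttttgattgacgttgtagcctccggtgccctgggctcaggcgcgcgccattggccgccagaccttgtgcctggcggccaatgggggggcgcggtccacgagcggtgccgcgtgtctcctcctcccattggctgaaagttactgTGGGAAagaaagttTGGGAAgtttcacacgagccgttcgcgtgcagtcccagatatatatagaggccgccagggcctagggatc
HES4: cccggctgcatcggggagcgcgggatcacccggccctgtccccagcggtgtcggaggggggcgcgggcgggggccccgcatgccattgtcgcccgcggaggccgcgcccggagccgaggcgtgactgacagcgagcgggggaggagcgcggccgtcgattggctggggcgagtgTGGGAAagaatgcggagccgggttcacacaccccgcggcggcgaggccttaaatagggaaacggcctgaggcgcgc
HEYL: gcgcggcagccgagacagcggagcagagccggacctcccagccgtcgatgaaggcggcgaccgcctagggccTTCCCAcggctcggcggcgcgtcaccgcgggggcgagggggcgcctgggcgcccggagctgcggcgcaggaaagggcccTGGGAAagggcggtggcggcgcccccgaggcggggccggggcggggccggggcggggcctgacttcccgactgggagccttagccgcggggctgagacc
NEURL1B: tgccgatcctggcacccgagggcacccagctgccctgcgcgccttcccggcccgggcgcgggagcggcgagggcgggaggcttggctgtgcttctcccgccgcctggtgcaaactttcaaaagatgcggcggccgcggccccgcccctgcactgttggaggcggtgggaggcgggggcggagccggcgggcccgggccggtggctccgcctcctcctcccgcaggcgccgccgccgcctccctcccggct

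HES1 carried TGGGAA at 84 and 70 bases before the start, both on the strand of the gene, and CACNAG at 3 places. HES4 carried a single TGGGAA at 76 bases and HEYL held matches at 178 and 99 bases before the start, on opposite strands. The NEURL1B window held none of these letters and 1 match to CACNAG. Of the 10 genes followed 9 had a window, and TGGGAA was found for 2 of them, HES1 and LFNG. LFNG had 2 windows, and only 1 of them held the core, at 248 bases before its start. Of 8 HES and HEY genes with a window 5 held it. A match is a stretch of letters and not a shown binding site. Of the genes that hold the core, HES1, HES4 and HEYL were not called as reported, though HES1 and HES4 were under some other settings. LFNG, with a match in only 1 of its 2 windows, was called higher. HEY1, which rose, had no window. Whether the core bears on any of these changes was not tested.

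The rest of the pathway was described from 9 lists by role, 82 genes in all, 72 of them other than the 10. Of those 72 genes 65 were tested, 7 rose and 11 fell, which is 27.7% called against 31.9% of all genes tested, and their median log2 change was 0.07 against -0.01 over all genes. With GC and length trends removed the split was 11 higher and 11 lower. Without PM2.5 replicate 1, 7 were higher and 6 lower.

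Among the 9 tested genes for proteases that cut the receptor 1 rose and 3 fell, or 44.4% called against 31.9% of all genes tested. ADAM10, the ectodomain protease of ligand-bound Notch, rose from 58.1 ± 6.11 to 105 ± 17.4 CPM (log2 change 0.85 ± 0.12, adjusted p = 6.76e-05, edgeR), or by 0.57 with GC and length trends removed. ADAM17, its relative, was not called (0.32 ± 0.12), but was with the DESeq2 test or its scaling, with both other filters, and when replicate 3 of Control (0.42) or of PM2.5 (0.41) was left out; taking out GC and length trends gave 0.10. Of the 6 genes for gamma-secretase subunits 3 fell: PSEN2, a catalytic presenilin, from 40.1 ± 3.10 to 20.7 ± 1.68 CPM (log2 change -0.96 ± 0.11, adjusted p = 8.95e-06, edgeR), PSENEN by 0.79 ± 0.15 and APH1A by 0.36 ± 0.10 on the log2 scale. Exons of other genes cover 56.5% of the exonic bases of PSENEN and 14.1% of those of APH1A, and the call for APH1A was lost without Control replicate 1 or PM2.5 replicate 1 (adjusted p = 0.0604 and 0.0555, edgeR).

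In the nucleus, RBPJ itself stood at 86.0 ± 4.46 CPM in Control and 103 ± 15.9 CPM in PM2.5 and was not called (log2 change 0.26 ± 0.11), but was without PM2.5 replicate 3 (0.37); with GC and length trends removed it was 0.04. Its coactivator MAML2 was not called (0.23 ± 0.12). Of 18 tested genes of the RBPJ complex and its partners 2 rose and 2 fell, or 22.2% called against 31.9% of all genes tested. The corepressor CTBP2 rose from 92.8 ± 7.88 to 137 ± 7.56 CPM (adjusted p = 0.000378, edgeR), with exons of other genes over 34.7% of its exonic bases, and the acetyltransferase KAT2B rose by 0.61 ± 0.17, a call lost without Control replicate 1. The acetyltransferases EP300 and CREBBP fell by 0.32 ± 0.10 and 0.33 ± 0.10, calls lost without PM2.5 replicate 1 (adjusted p = 0.103 and 0.0848, edgeR), for EP300 also without PM2.5 replicate 2 and for CREBBP also without Control replicate 2.

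Of 9 tested genes of receptor turnover 11.1% were called, against 31.9% of all genes tested. The only one was DTX3, a Deltex ubiquitin ligase, lower by 0.64 ± 0.16 on the log2 scale. Of 9 tested glycosyltransferase genes 2 rose and 1 fell, or 33.3% called against the same 31.9%. The rises were LFNG and GXYLT2, a xylosyltransferase that extends O-glucose on Notch. GXYLT2 went from 6.28 ± 1.47 to 10.9 ± 0.586 CPM (adjusted p = 0.00266, edgeR). POFUT1, which adds the O-fucose that LFNG elongates, stood at 97.7 ± 10.9 and 98.8 ± 8.30 CPM and was not called. Of 9 tested other textbook targets 2 rose and 3 fell, or 55.6% called against 31.9% of all genes tested. The repressor SNAI2 fell by 2.05 ± 0.16 and the cell cycle inhibitor CDKN1A by 0.76 ± 0.10 on the log2 scale. The transcription factor SOX9 and the pseudokinase TRIB2 rose by 0.50 ± 0.12 and 0.40 ± 0.10 on that scale. The third fall, of the luminal transcription factor GATA3 (-0.53 ± 0.19), was outside the naming rule and chosen after its value was seen; leaving out any library but Control replicate 3 ended that call (adjusted p = 0.0629 to 0.2, edgeR). These genes answer to several pathways besides Notch.

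**Figure D4:**
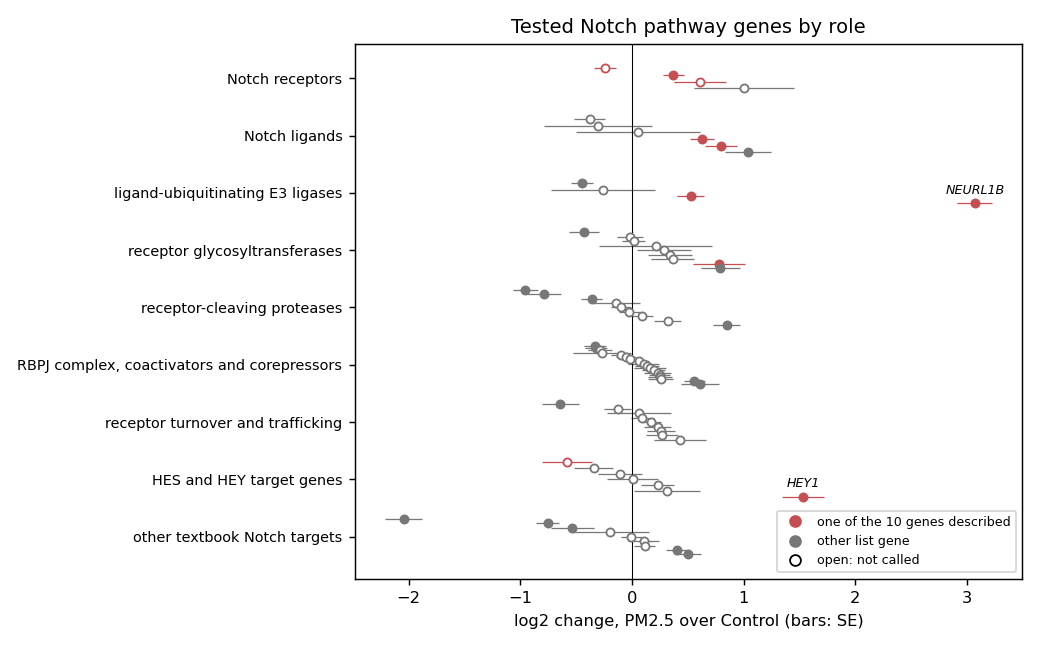
The log2 change (PM2.5 over Control, bars: SE) of each tested Notch pathway gene, grouped by role, with the 10 genes followed in red, other list genes in grey and genes not called as open points. NEURL1B (3.07) and HEY1 (1.53) lie at the far right of their groups, while most other pathway genes lie within 1 log2 unit of 0.

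Ranked by level per length within Control, the 10 genes ran NOTCH2 (33.1 ± 2.73 RPKM), HES1 (23.4 ± 10.02), JAG1 (11.9 ± 1.69), NOTCH1 (10.4 ± 0.331), MIB1 (5.31 ± 0.151), JAG2 (1.12 ± 0.0841), LFNG (1.04 ± 0.371), HEY1 (1.03 ± 0.226), NEURL1B (0.392 ± 0.0122) and NOTCH3 (0.233 ± 0.0033). HES1 and JAG1 overlapped between libraries, as did JAG2, LFNG and HEY1, and the other neighbours did not. Within PM2.5 the order was NOTCH2 (28.1 ± 0.691 RPKM), JAG1 (18.4 ± 0.757), HES1 (15.6 ± 0.56), NOTCH1 (13.4 ± 1.27), MIB1 (7.64 ± 1.49), NEURL1B (3.30 ± 0.364), HEY1 (2.97 ± 0.33), JAG2 (1.94 ± 0.0351), LFNG (1.79 ± 0.179) and NOTCH3 (0.356 ± 0.0779). There NEURL1B and HEY1 overlapped, as did JAG2 and LFNG. NEURL1B was ninth of the 10 in Control and sixth in PM2.5.

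The genes closest in pattern to JAG1 were P3H2, a collagen prolyl hydroxylase, EVPL, a desmosome-linked plakin, and LDHA, lactate dehydrogenase (root mean square difference 0.03, 0.03 and 0.04 over 6 libraries). P3H2 went from 50.1 ± 7.13 to 78.9 ± 3.79 CPM, and like JAG1 it was highest among the Control libraries in replicate 3.

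**Figure D5:**
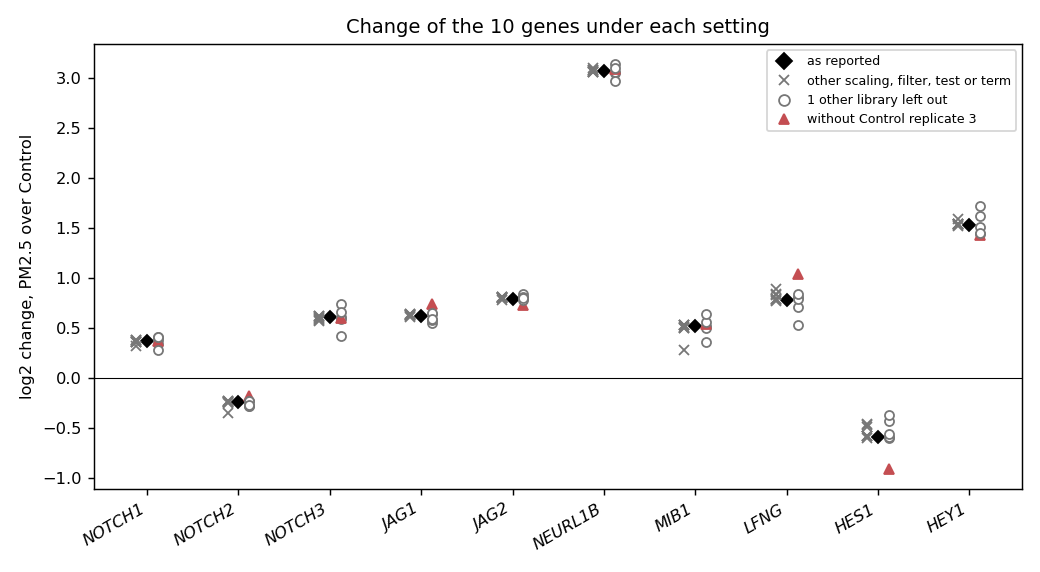
The log2 change (PM2.5 over Control) of each of the 10 genes as reported (diamonds), under 7 planned or added changes of scaling, filter, test or term (crosses), and with 1 library left out (circles, or red triangles for Control replicate 3). No point crosses 0 for any of the 10 genes, and HES1 moves most, from -0.90 to -0.37.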

How the data were processed

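RNA of 6 MDA-MB-231 libraries, 3 Control and 3 PM2.5, was sequenced on an Illumina NovaSeq instrument after NEBNext Ultra library preparation, per the labels' protocols. Raw counts for each gene, with its length, form the 1 table that the authors deposited, per the file headers. The submitters' processing notes name the build GRCh38; the sources used here do not give aligner, counter or strand setting. Gene positions and deposited lengths matched GENCODE 29 for all 58735 rows.

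The members and lists were chosen with earlier results of these data known. Genes were kept by filterByExpr (minimum count 10, total 15; 14975 genes), scaled by TMM and compared with edgeR 4.0.16 in R 4.3.3 (quasi-likelihood, two-sided, group only, Benjamini-Hochberg over all genes). SE is the size of the log2 change over the square root of F. CPM uses TMM factors, and RPKM divides CPM by length in kilobases. Only the CPM of the cell type markers and of a count of 0 is over total counts, without TMM factors. Total counts per library were 31846136 to 34691009, and a count of 0 allows at most 3 counts, 0.0865 to 0.0942 CPM, counting error only. Alternatives were DESeq2 1.42.0, its size factors, limma-voom (limma 3.58.1), 2 other filters, the replicate number as a block, each library left out, and, added after seeing the data, GC and length trends removed by loess. The fit was tested on simulated counts. Within-group pairs differed beyond counting noise (chi-square per degree of freedom 5.85 to 36.5).

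Named genes were the 10 members, 18 fixed pathway genes, up to 4 called genes per list with the smallest p, and the nearest patterns to NEURL1B, JAG1 and HES1. Others, such as DUSP1 and HSPA5, were chosen after their values were seen. A few genes that this rule names are not reported here.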

Additional observations from a re-analysis of the deposited data

How the results depend on the processing

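The direction of all 10 genes was the same under each of the 13 alternatives run. Their count of higher calls stayed at 6 to 7. The count of lower calls, 0 as reported, was 1 with DESeq2 size factors, with the DESeq2 test, with no filter on low counts and with GC and length trends removed (added after seeing the data), and 0 to 1 over the libraries left out in turn. It was NOTCH2 with the DESeq2 test and with those trends removed, and HES1 with DESeq2 size factors, with no filter and without Control replicate 3. Among the 72 other pathway genes the higher calls, 7 as reported, were 11 with GC and length trends removed, and the lower calls, 11 as reported, were 6 to 11 over the libraries left out, with 6 without PM2.5 replicate 1. Over all genes the lower calls, 2365 as reported, ran from 1448 (without PM2.5 replicate 1) to 2680 (without Control replicate 3) over the libraries left out. They were 2744 with GC and length trends removed. Depth limits NOTCH4, DLL1, DLL4, MFNG and NEURL1 most, with at most 45 counts in a library and an SE of 0.45 to 0.55 on the log2 scale.

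No effect shared by libraries of the same replicate number was visible. The correlation of deviations from the group means was -0.005, -0.05 and -0.11 for replicates 1, 2 and 3. For pairs of unlike number it ran from -0.08 to 0.12. Deviations within a group depend on each other, so these values cannot show whether the cultures were paired. With the replicate block 7 of the 10 genes, 16 of the other pathway genes and 3777 of all genes were called; among the genes recomputed this way it ended the calls for RFNG, INSIG1, GATA3 and BNIP1 (adjusted p = 0.0674, 0.0772, 0.0901 and 0.0568, edgeR).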
